A study of Mus musculus with 16 samples.

Results

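The genes described here are 7 genes of MHC class II antigen presentation out of 47069 genes in a table of hypothalamus RNA sequencing counts. They are H2-Aa, H2-Ab1, H2-Eb1, Cd74, H2-DMa, H2-DMb1 and Ciita. They were chosen by gene symbol with earlier results of these data known, and which measured values led to the choice is not recorded. Their levels and differences are therefore given as a description, with no p. How many of them lay past the threshold of a fit over all genes is printed beside the share of all genes that did, and nothing is read from it. All 7 were in the table and all 7 passed the filter on low counts, which left 16646 genes.

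Total RNA was taken from the hypothalamus of mice of C57BL/6N, an inbred strain, kept on 8 diets. In 4 of the diets 60% of the energy came from fat, and in the other 4 it was 20%. At each fat level the protein share was 1%, 2.5%, 5% or 20% of energy, and each diet had 2 libraries, so that a protein level had 4 and a fat level 8. The study asked how dietary protein and fat shift hypothalamic gene expression, and the labels used here give no age, sex, time on the diet or source animal. P-values for other genes therefore measure only the spread between these libraries, which may be technical.

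MHC class II molecules sit on the surface of antigen-presenting cells and show peptides from engulfed proteins to CD4 T cells. Each molecule is a pair of an alpha and a beta chain: H2-Aa and H2-Ab1 encode the pair of the mouse I-A molecule, and H2-Eb1 encodes the beta chain of I-E. C57BL/6 mice carry a defective alpha chain gene for I-E, listed as H2-Ea-ps, so their I-E molecule does not reach the surface. Cd74, the invariant chain, holds the new pairs in shape and guides them to endosomes, where cathepsin S, the product of Ctss, trims it. H2-DMa and H2-DMb1 encode H2-DM, which swaps the leftover fragment of Cd74 for peptide. Ciita is the transactivator that switches the class II genes on, and interferon gamma is its best known inducer. In the healthy brain class II is found mainly on macrophages of the meninges, vessels and choroid plexus, and little of it on resting microglia.

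Class II genes share a promoter module, in which an X box bound by the RFX complex stands a short way upstream of a Y box bound by NF-Y, and Ciita docks on the proteins assembled there. The stretches below are shown because this module is what the chain genes have in common as targets of Ciita. They are RefSeq sequences on GRCm38.p6, printed 5′ to 3′ on the strand of the gene. Capitals mark an X half-site, GNAAC, and a Y box, TGATTGG. H2-Aa lies on the reverse strand at chr17:34287847-34287944, H2-Eb1 on the forward strand at chr17:34305736-34305832, and H2-Ob, a related beta chain gene that is not among the 7, on the forward strand at chr17:34238778-34238872.
H2-Aa: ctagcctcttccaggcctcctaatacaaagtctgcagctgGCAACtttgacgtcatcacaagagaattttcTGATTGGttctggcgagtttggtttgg
H2-Eb1: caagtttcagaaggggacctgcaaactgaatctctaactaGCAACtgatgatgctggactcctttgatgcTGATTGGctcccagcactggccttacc
H2-Ob: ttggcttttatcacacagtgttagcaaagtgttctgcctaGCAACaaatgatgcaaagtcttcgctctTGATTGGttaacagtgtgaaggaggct

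The X half-site and the Y box were 26 bases apart in H2-Aa, 25 in H2-Eb1 and 23 in H2-Ob. The Y box ended 44, 55 and 53 bases upstream of the start site. The motif letters and the spacing of 20 to 30 bases were set after these sequences had been read, and the 250 bases upstream of each start site were searched on both strands. In 32851 promoter windows of the table, 7.23% held the Y box, 79.6% the short X half-site, and 0.271% the half-site followed by the Y box at that spacing. Windows of 4 of the 7 genes were used, with Cd74 left out and none used for H2-Ab1 or Ciita. H2-DMb1 also held the spaced motifs, 26 bases apart, while neither of the 2 windows of H2-DMa did. Outside the 7 they were present for H2-Oa and H2-Eb2 and not present in these letters for Ctss or for H2-DMb2, which held a Y box only. A match is a description of the letters, and the libraries measured no binding.

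The libraries held 17731242 to 18511818 counts each. Values below are CPM, the usual library-scaled counts, with TMM scaling. At this depth 18 counts came to 1.01 CPM, as for H2-Ab1 in each 60% fat library at 1% protein. All 13 genes of a list of hypothalamic neuron genes passed the filter. A pair of libraries, replicate 2 of 20% fat with 1% protein and with 2.5% protein, carried more RNA of cortical and hippocampal neurons: 9 marker genes summed to 1880 and 3050 CPM there, against 982 to 1320 CPM in the other 14. In 3 of the 4 libraries at 1% protein, mitochondrial genes took 1.54% to 1.78% of the counts, against 2.19% to 3.20% in the other 13. The same 3 libraries also had the lowest Spearman correlation, across genes, between gene length and a gene's deviation from its mean over the libraries: -0.261 to -0.169, against -0.136 to 0.315 in the other 13. Each library at 1% protein belongs to the cortical pair or to the 3 of low mitochondrial share. Without the pair only those 3 stand for 1% protein, and without the 3 only replicate 2 of 20% fat does. Changed counts of called genes, or sizes of change, without either set are given beside the result.

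At 1% protein the hypothalamus held less RNA of the peptide-binding chains and of Cd74 than at 20% protein, at both fat levels. The level was lower 3.76-fold for H2-Aa, 3.69-fold for H2-Ab1, 2.90-fold for Cd74 and 2.34-fold for H2-Eb1. H2-DMa and H2-DMb1, whose product loads the peptide, were not lower by more than their error, and Ciita stood between, 1.56-fold lower. In bulk tissue, fewer class II expressing cells and less of this RNA per cell cannot be told apart.

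**Figure D1:**
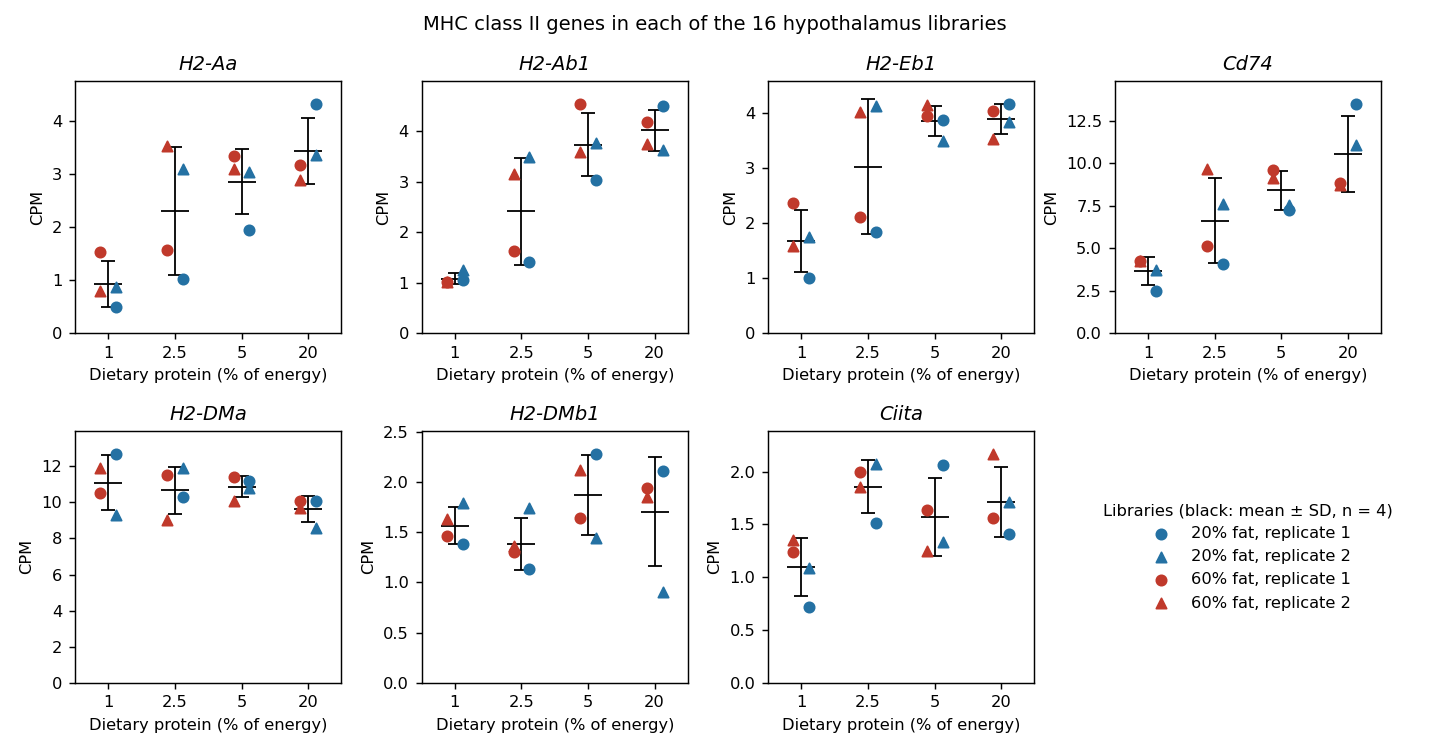
Level of each of the 7 genes (CPM, y axis from 0) in every library against dietary protein (% of energy). Circles are replicate 1 and triangles replicate 2, red is 60% fat and blue 20% fat, and black bars are the mean ± SD of the 4 libraries at a protein level. H2-Aa, H2-Ab1, H2-Eb1 and Cd74 are low in all 4 libraries at 1% protein, and at 2.5% protein they split into low replicate 1 and high replicate 2 libraries.

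H2-Aa encodes the alpha chain of I-A. At 1% protein it had 1.52 and 0.788 CPM in the 60% fat libraries and 0.498 and 0.868 CPM in the 20% fat libraries. At 20% protein the values were 3.17 and 2.88 CPM with 60% fat and 4.32 and 3.36 CPM with 20% fat. No library at 1% protein reached the lowest at 20% protein, and the log2 change was -1.91 ± 0.35 (SE; edgeR, as for all fitted changes below). These levels rest on few reads, 9 to 27 counts per library at 1% protein and 53 to 80 at 20%.

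H2-Ab1, the partner beta chain, was the most even of the chains at 1% protein. Its values there were 1.01 CPM in both 60% fat libraries and 1.05 and 1.25 CPM in the 20% fat libraries. At 20% protein it had 4.19 and 3.75 CPM with 60% fat, and 4.49 and 3.63 CPM with 20% fat. The groups did not overlap, with means of 1.08 ± 0.113 and 4.01 ± 0.397 CPM (SD, n = 4), and the log2 change was -1.88 ± 0.26.

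H2-Eb1, the beta chain of I-E, is transcribed in this strain although its partner is defective. It had 2.36 and 1.58 CPM with 60% fat and 0.995 and 1.74 CPM with 20% fat at 1% protein. At 20% protein the values were 4.03, 3.53, 4.16 and 3.84 CPM in the same order. Here too the groups stood apart, by a smaller margin than for the I-A chains, and the log2 change was -1.23 ± 0.25. The defective alpha gene, H2-Ea-ps, had 0 or 1 count in every library.

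Cd74, the chaperone of the chains, followed them. At 1% protein it had 4.22 CPM in both 60% fat libraries and 2.49 and 3.74 CPM in the 20% fat libraries. At 20% protein it had 8.82 and 8.75 CPM with 60% fat and 13.5 and 11.1 CPM with 20% fat. Every library at 1% protein was below every library at 20%, and the log2 change was -1.53 ± 0.23. The highest values of the whole series were the pair at 20% fat with 20% protein.

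H2-DMa, the alpha chain of the peptide editor, did not share this pattern. It had 10.5 and 11.9 CPM with 60% fat and 12.7 and 9.28 CPM with 20% fat at 1% protein. At 20% protein the values were 10.1, 9.68, 10.1 and 8.59 CPM. The groups overlapped, the log2 change was 0.21 ± 0.11, and its point estimate was upward. H2-DMb1, its partner, had means of 1.57 ± 0.182 CPM at 1% and 1.70 ± 0.540 CPM at 20% protein (SD, n = 4), and a log2 change of -0.11 ± 0.24.

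Ciita, the transactivator, had 1.24 and 1.35 CPM with 60% fat and 0.719 and 1.09 CPM with 20% fat at 1% protein. At 20% protein it had 1.56 and 2.17 CPM with 60% fat and 1.41 and 1.71 CPM with 20% fat. The groups did not overlap, but the nearest libraries were 1.35 and 1.41 CPM, and the log2 change was -0.64 ± 0.22. In the annotation 71.2% of the exon bases of Ciita lie inside Dexi, a coding gene with 1303 to 1759 counts per library against 13 to 40 for Ciita. Dexi rose at 1% protein (log2 change 0.22 ± 0.07, edgeR adjusted p = 0.0434), opposite in sign to Ciita. H2-DMa overlaps the coding gene Brd2 over part of its length, 14.8% of its exon bases counting all 4 overlapping genes, and Brd2 had a log2 change of 0.17 ± 0.06 (adjusted p = 0.0618). How the counting divided such reads was not given in the sources used here.

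At 1% against 20% protein, 4 of the 7 genes lay past the threshold (called, below), namely H2-Aa, H2-Ab1, H2-Eb1 and Cd74, all lower. Of all 16646 genes 14.3% were called in this comparison (adjusted p under 0.05), 6.01% lower and 8.26% higher. The groups did not overlap, with the 1% libraries lower, for 5 of the 7 genes, these 4 and Ciita, and for 6.35% of all genes. The median log2 change was -1.23 over the 7 genes and 0 over all genes. Nothing is read from these shares, since the genes were selected on results of these libraries. When the pair of libraries with cortical markers was left out, 6 of the 7 were called, Ciita and H2-DMa in addition to the 4, and 5889 genes in all. H2-DMa was then higher at 1% protein (log2 change 0.28) and Ciita lower (-0.68). The libraries at 1% protein in that fit were the 3 of low mitochondrial share, so that share and the protein level cannot be told apart in it. Without the 3 libraries of low mitochondrial share, which leaves 1 library at 1% protein, none of the 7 was called and 403 genes in all were. The 1% library left is replicate 2 of 20% fat, of the pair with cortical markers, so no library at 1% protein is outside both sets. The values of the 4 were then -1.94 for H2-Aa, -1.65 for H2-Ab1, -1.16 for H2-Eb1 and -1.48 for Cd74.

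**Figure D2:**
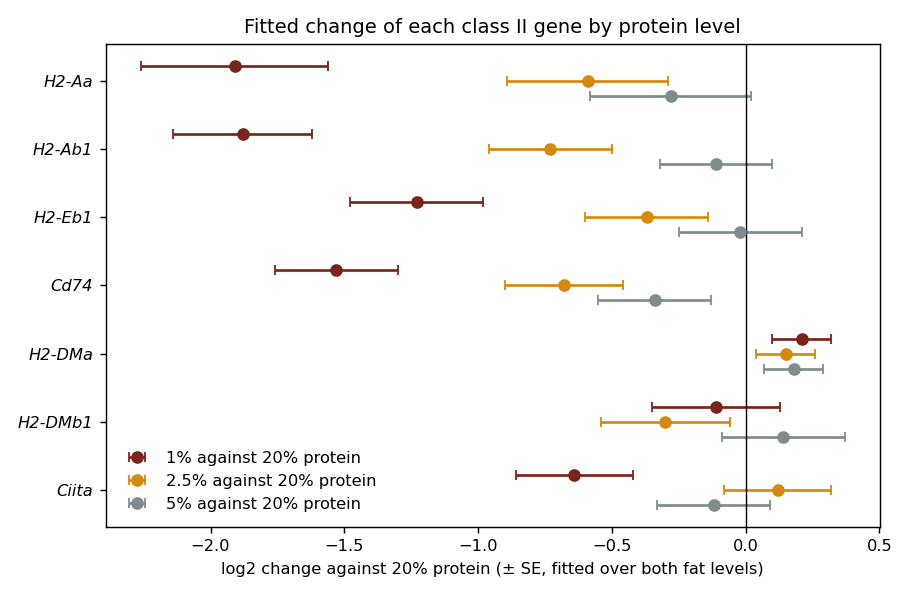
Fitted log2 change of each gene against 20% protein (x axis, bars ± SE) at 1%, 2.5% and 5% protein, over both fat levels. At 1% protein H2-Aa, H2-Ab1, Cd74 and H2-Eb1 lie between -1.91 and -1.23, Ciita at -0.64, and H2-DMa and H2-DMb1 near 0.

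The sum of the 3 chains and Cd74 shows the dose order. It was 7.34 ± 1.70 CPM at 1%, 14.4 ± 5.89 at 2.5%, 18.8 ± 2.34 at 5% and 21.9 ± 3.27 CPM at 20% protein (SD, n = 4). Relative to 20% protein the mean was 2.98-fold lower at 1%, 1.52-fold lower at 2.5% and 1.16-fold lower at 5%. The 5% and 20% libraries overlapped, 16.1 to 21.4 against 18.9 to 26.4 CPM, so these neighbours do not differ beyond their spread. The 2.5% libraries, 8.34 to 20.4 CPM, overlapped every other level, and the libraries at 1% protein, 5.03 to 9.12 CPM, lay below all of those at 5% and 20%.

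H2-DMa, H2-DMb1 and Ciita together stayed between 11.2 and 15.7 CPM in all 16 libraries. The chains and Cd74 therefore took a smaller share of the counts of the 7 genes at 1% protein, with 58.0% to 66.2% at 20% protein and 25.3% to 40.8% at 1% protein. A share within the 7 genes shows that they changed unequally and does not depend on the scaling of the library.

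**Figure D3:**
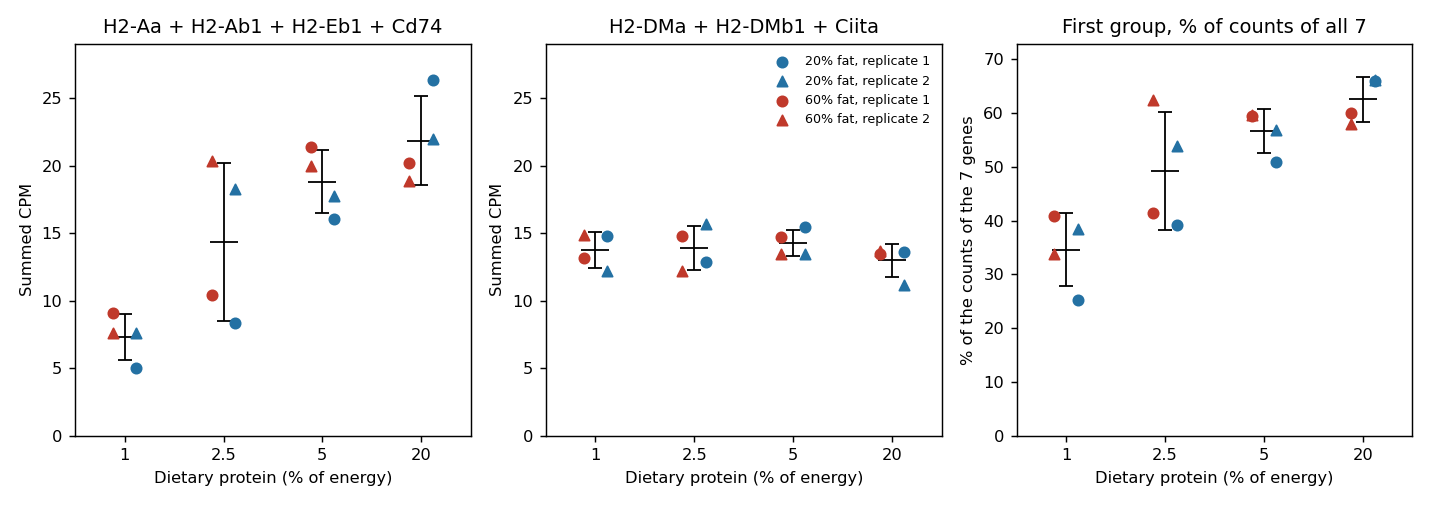
Summed CPM of H2-Aa, H2-Ab1, H2-Eb1 and Cd74 (left), summed CPM of H2-DMa, H2-DMb1 and Ciita (middle, same scale), and the first sum as % of the counts of all 7 genes (right), by protein level, with points as in the plot of single genes and black mean ± SD (n = 4). The left sum runs from 5.03 CPM in the lowest library at 1% protein to 26.4 CPM at 20%, and the middle sum stays between 11.2 and 15.7 CPM.

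The libraries at 2.5% protein fell into a low and a high pair. With 60% fat the sum of chains and Cd74 was 10.4 CPM in replicate 1 and 20.4 CPM in replicate 2, and with 20% fat it was 8.34 and 18.3 CPM. The low pair stood next to the 1% libraries and the high pair among the 5% and 20% libraries. The 4 genes split together: H2-Ab1, for example, had 1.62 and 3.15 CPM with 60% fat and 1.40 and 3.48 CPM with 20% fat. H2-Aa split from 1.57 to 3.53 CPM and from 1.02 to 3.10 CPM. H2-DMa did not, with 11.5 and 9.02 CPM and with 10.3 and 11.9 CPM.

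Other RNAs moved with that split. In the same order of libraries the summed markers of border-associated macrophages, the macrophages of meninges and vessels, were 30 and 33.2 CPM with 60% fat and 31.7 and 41.2 CPM with 20% fat. Markers of meningeal fibroblasts summed to 130 and 146 CPM and to 126 and 151 CPM. Endothelial markers summed to 213 and 230 CPM and to 228 and 284 CPM. Pituitary markers, at a low level, summed to 1.14 and 2.23 CPM and to 0.7 and 6.04 CPM. All 4 sums were higher in replicate 2 at each fat level, and the microglial sums were 515, 520, 519 and 524 CPM. Choroid plexus sums (45.7 and 56.2, 48.3 and 220 CPM) and red blood cell sums (52.3 and 54.4, 53.7 and 85.7 CPM) were higher in replicate 2 as well. So were those of B cells (23.9 and 26.1, 23 and 29.9 CPM) and dendritic cells (42.3 and 43.4, 42.2 and 43.6 CPM). Sums of T and NK cells, monocytes and neutrophils, cortical neurons and hypothalamic neurons were higher at only 1 fat level. The high library at 20% fat is one of the pair with cortical markers, and the high library at 60% fat is not. The part of these RNAs in the split was not tested.

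At 2.5% against 20% protein none of the 7 genes was called, in a comparison that called 0.00601% of all genes. The log2 change was -0.73 ± 0.23 for H2-Ab1, -0.68 ± 0.22 for Cd74, -0.59 ± 0.30 for H2-Aa and -0.37 ± 0.23 for H2-Eb1. H2-Ab1 had 1.4 to 3.48 CPM at 2.5% and 3.63 to 4.49 CPM at 20% protein. Ciita stood at 0.12 ± 0.20, with 1.86 ± 0.250 CPM at 2.5% protein against 1.71 ± 0.332 at 20% (SD, n = 4). At 5% against 20% protein none was called either, with 0.03% of all genes called. H2-Aa, H2-Ab1, H2-Eb1, Cd74, H2-DMb1 and Ciita lay between -0.34 and 0.14 there. H2-DMa was at 0.18 ± 0.11, with 10.1 to 11.4 CPM at 5% and 8.59 to 10.1 CPM at 20% protein. These comparisons share the 20% libraries with the one above.

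Against the 2.5% diets, the 1% diets again had less of the chains on average. The diet codes in the titles share a start at 1% and 2.5% protein and another at 5% and 20%, and no source used here says what the codes stand for. Between 1% and 20% protein, and between 2.5% and 20%, the start of the code and the protein level cannot be told apart. The dose order of the chain sums and the protein slope also run across both starts. The comparison within a start was added after the data had been seen. The log2 change was -1.32 ± 0.37 for H2-Aa, -1.15 ± 0.27 for H2-Ab1, -0.86 ± 0.26 for H2-Eb1, -0.85 ± 0.24 for Cd74 and -0.76 ± 0.22 for Ciita. The libraries did not overlap for H2-Ab1, at 1.01 to 1.25 against 1.40 to 3.48 CPM, or for Ciita, at 0.719 to 1.35 against 1.51 to 2.07 CPM. Those of H2-Aa, H2-Eb1, Cd74, H2-DMa and H2-DMb1 overlapped. The share of all genes without overlap was not counted for this comparison, so nothing is read from it. H2-Ab1 was the only one of the 7 called, where 2.32% of all genes were. In the same comparison 3 of 15 microglial genes, 2 of 10 endothelial genes and 1 of 9 genes of meningeal fibroblasts were lower, with medians of -0.12, -0.39 and -0.23, and none of 8 border macrophage genes passed.

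No difference by fat content was larger than the spread between libraries. The 60% fat and 20% fat libraries overlapped for every one, and the log2 change ran from -0.01 ± 0.08 for H2-DMa to 0.18 ± 0.23 for H2-Aa. Cd74 ranged from 4.22 to 9.67 CPM (median 8.79) with 60% fat and from 2.49 to 13.5 CPM (median 7.42) with 20% fat. None of the 7 was called, and 0.00601% of all genes were.

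At 20% and 1% protein Cd74 had 8.79 and 4.22 CPM (means of 2 libraries) with 60% fat, and 12.3 and 3.12 CPM with 20% fat. H2-Aa had 3.03 and 1.15 CPM, and 3.84 and 0.683 CPM. The difference of the log2 changes, 60% minus 20% fat, was 0.92 ± 0.42 for Cd74, 1.09 ± 0.74 for H2-Aa and -0.15 ± 0.57 for H2-Ab1. None of the 7 was called for this difference, nor was any of all genes: 0% by edgeR, with 1305 at an unadjusted p under 0.05 and also 0 by DESeq2.

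The model of the series' design text fits a straight line over the protein percentage. Scaled to the step from 20% to 1% protein, it gave -1.04 ± 0.37 for H2-Aa, -1.04 ± 0.34 for H2-Ab1, -1.01 ± 0.27 for Cd74 and -0.66 ± 0.29 for H2-Eb1. Each was smaller than the direct difference between 1% and 20%, and the levels at 5% and 20% protein lay close together. None of the 7 was called on this scale, where 0.018% of all genes were. With protein on a log2 scale 4 of the 7 were called, their median was -1.06, and 1311 genes were called in all.

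Levels between genes can be compared only per length. Per kilobase of annotated exon (GENCODE M21, GRCm38), the 16 libraries together held 1281 counts for Cd74, 898 for H2-DMa, 470 for H2-Eb1, 322 for H2-Ab1, 284 for H2-DMb1, 184 for H2-Aa and 48.0 for Ciita. Per kilobase of the length in the deposited table H2-DMa came first with 790 and Cd74 second with 244. That length exceeds the annotated exon bases for all 7, and the least for H2-DMa. The bases that were counted need not be the annotated exons, and the order of the genes depends on the length used. Ciita had the lowest value on both scales. Most of its exon bases lie inside Dexi, and how reads there were counted is not known, so this value may be too low.

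In the annotation 5 of the 7 genes lie in the MHC on chromosome 17 and all 7 are protein coding. H2-DMa (ENSMUSG00000037649) spans 34119541 to 34139101 and H2-DMb1 (ENSMUSG00000079547) 34153072 to 34160230, both on the forward strand. H2-Ab1 (ENSMUSG00000073421) spans 34257689 to 34269419 on the forward strand and H2-Aa (ENSMUSG00000036594) 34282744 to 34287823 on the reverse strand. H2-Eb1 (ENSMUSG00000060586) spans 34305867 to 34316674 and shares 9.31% of its exon bases with a noncoding gene. Ciita (ENSMUSG00000022504) is on chromosome 16 and Cd74 (ENSMUSG00000024610) on chromosome 18, so Cd74 is no neighbour of the chain genes.

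Over the 16 libraries the chains and Cd74 varied together. Between pairs of these 4 genes Pearson's r of log2 CPM was 0.91 to 0.97, and 0.71 to 0.91 once the mean of each protein level was removed. With Ciita they had r of 0.53 to 0.65, and 0.04 to 0.41 within protein levels. With H2-DMa it was -0.47 to -0.32 and with H2-DMb1 0.20 to 0.32. These are descriptions over libraries that share their diets and depth, and no p is attached.

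Of 13189 other genes with a mean of at least 1 CPM, the 10 most like the 7 by Pearson's r with the mean of their standardised log2 CPM were Ifi27 (0.944), Enpp1 (0.920), Anxa2 (0.907), Ncan (0.896), Fxyd5 (0.888), Ptn (0.885), Padi2 (0.878), Slc13a3 (0.876), Irgm2 (0.875) and Hspg2 (0.873). Ifi27 was also first by Spearman's rho, at 0.935, and kept r = 0.845 within protein levels. By Spearman only 2 of the 10, Ifi27 and Hspg2, stayed among the first 10. Ifi27 is an interferon-stimulated gene and Irgm2 an interferon-inducible GTPase. Next in the ranking came genes of several lists used here. They included the fibroblast markers Col3a1 (0.870) and Col1a1 (0.858) and the microglial markers Olfml3 (0.867) and Siglech (0.866). The endothelial marker Cdh5 (0.847) and the interferon gamma gene Gbp3 (0.844) followed. Ifi27 had 21, 20.8, 17.1 and 18.3 CPM at 1% protein and 26.3, 26.4, 27.6 and 25.0 CPM at 20%, a log2 change of -0.45 ± 0.10. Its range was far narrower than that of the chains.

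A list of other genes of the class II pathway was tested across all genes, 20 of them in the table and 17 past the filter. At 1% against 20% protein 2 were lower, 1 was higher and 14 did not pass. The median log2 change was -0.06, against 0 over all genes. Ctss, the protease that trims Cd74, fell by 0.33 ± 0.06 on the log2 scale (edgeR adjusted p = 0.00179). It had 48.0, 45.0, 44.7 and 45.5 CPM at 1% protein and 59.6, 57.1, 59.1 and 54.1 CPM at 20%, with no overlap. Its fall was 1.26-fold, smaller than that of any of the chains. Against 2.5% protein it was also lower, by 0.24 ± 0.06 (adjusted p = 0.0367). Without the 3 libraries of low mitochondrial share its call was lost at nearly the same size, -0.32 with adjusted p = 0.1.

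The tetraspanin Cd9, which clusters class II at the membrane, had a log2 change of -0.27 ± 0.07 (adjusted p = 0.0269). Its libraries overlapped, and the call was lost in 4 of 23 alternatives. Nfyb, a subunit of the Y box factor NF-Y, rose by 0.23 ± 0.07 (adjusted p = 0.0295), with the call lost in 9 of 23. The other subunits had -0.18 ± 0.12 (Nfya) and 0 ± 0.08 (Nfyc), and the RFX subunits 0.06 ± 0.08 (Rfx5), 0.11 ± 0.06 (Rfxap) and -0.06 ± 0.10 (Rfxank). Creb1, which also binds the module, had -0.32 ± 0.15 (adjusted p = 0.166), and passed (-0.58, adjusted p = 0.000544) when the pair of libraries with cortical markers was left out. Its sign was not kept over the 23 alternatives, where the change of Creb1 ran from -0.58 to 0.25. When single libraries were left out it was -0.58 to -0.23. None of the factors that bind the class II promoter module passed as lower over all 16 libraries.

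The endosomal enzymes that prepare peptides did not pass. Lgmn, an asparaginyl endopeptidase, had 0.08 ± 0.07, Ctsl, another cathepsin, 0.07 ± 0.06, and Ifi30, which reduces disulfide bonds, -0.04 ± 0.12. The tetraspanins Cd63, Cd82 and Cd37 had -0.16 ± 0.08, -0.17 ± 0.09 and -0.11 ± 0.12. H2-Ob, a chain of the H2-O molecule that restrains H2-DM, had -0.39 ± 0.37. H2-DMb2, the second beta chain gene of H2-DM, had 0.69 ± 0.38 on 5 to 20 counts per library (adjusted p = 0.223). It passed as higher, at 0.94 (adjusted p = 0.0467), when replicate 2 of 20% fat with 1% protein was left out. Its sign was not kept over the 22 alternatives, where the change ran from -0.66 to 1.11. When single libraries were left out it was 0.42 to 1.11. H2-DMb1 and H2-DMb2 are near-identical copies, so the split of reads between them is uncertain.

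**Figure D4:**
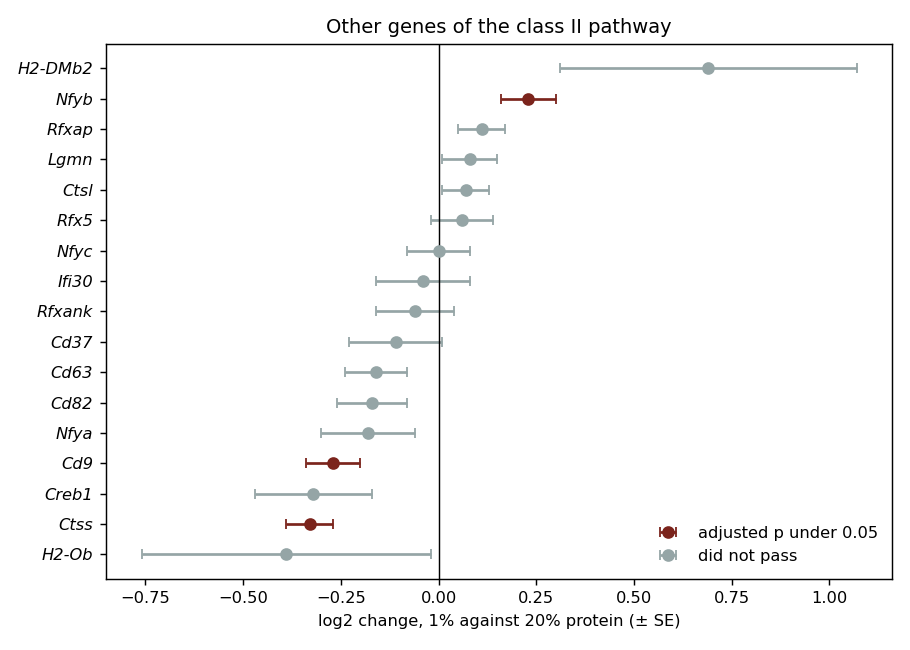
Log2 change at 1% against 20% protein (x axis, bars ± SE) of the 17 other class II pathway genes that passed the filter, in order of size, with genes of adjusted p under 0.05 in dark red and the rest grey. Ctss and Cd9 are lower, Nfyb is higher, and the rest did not pass.

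H2-Eb2 had 2 to 9 counts per library and H2-Oa was listed at 0 in every library, so neither was tested. Every exon base of H2-Oa lies inside another annotated gene. The same holds for B2m, the light chain of class I molecules that nearly every cell makes, which is also listed at 0, so a 0 in this table need not be a level. Of the genes on the lists used here 16 were at 0 throughout, and 14 of these lie wholly inside another gene.

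Genes of the interferon gamma axis, which drives Ciita, were lower where they passed. Of 21 listed genes 15 were tested, 4 were lower at 1% protein, none was higher, and the median log2 change was -0.30. Gbp2, a guanylate-binding GTPase, fell 2.08-fold (log2 change -1.06 ± 0.21, adjusted p = 0.00461), from 2.69, 2.94, 3.62 and 3.20 CPM at 20% protein (60% fat first) to 1.74, 1.41, 0.83 and 1.95 CPM. Nlrc5, which is to class I genes what Ciita is to class II, had -0.86 ± 0.25 (adjusted p = 0.0304), and Gbp3, another GTPase of the Gbp2 family, -0.80 ± 0.22 (adjusted p = 0.0252). Irgm2 had -0.48 ± 0.15 (adjusted p = 0.043). The call of Nlrc5 was lost when any of 6 of the 8 libraries at 1% and 20% protein was left out (adjusted p 0.0617 to 0.0922), that of Gbp3 for any of 5 of them (0.0503 to 0.0921) and that of Irgm2 in 13 of 23 alternatives. Without the 3 libraries of low mitochondrial share none of the 15 passed, with Gbp2 at -0.81 (adjusted p = 0.126), and without the pair with cortical markers 7 passed. Leaving out single libraries gave 1 to 7 lower genes, with 1 when either 60% fat library at 1% protein, replicate 2 at 60% fat and 20% protein, or replicate 1 at 20% fat and 1% protein was left out, and 2 for replicate 2 at 20% fat and 20% protein. Ifng itself, the cytokine, had 0 to 2 counts per library.

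Genes of class I presentation had a smaller median change than the 7 genes. Of 16 listed genes 13 were tested, and B2m, at 0, was not. Of these 13 genes 2 were lower and none higher, 10 had a change below 0, and the median was -0.17. The list summed to 1150 to 1370 CPM at 1% and 1360 to 1470 CPM at 20% protein. H2-Q4, a class I heavy chain of the Q region, had -0.69 ± 0.20 (adjusted p = 0.0326, lost in 7 of 23 alternatives), and Pdia3, a chaperone of class I loading, -0.22 ± 0.05 (adjusted p = 0.0105). Without the 3 libraries of low mitochondrial share none of the 13 passed, with Pdia3 at -0.21 (adjusted p = 0.23), and without the pair with cortical markers 4 did. Without single libraries the count was 1 to 4, with 1 for all those at 1% or 20% protein but replicate 1 at 60% fat and replicate 2 at 20% fat with 1% protein. Of 6 tested genes of costimulation, the second signal to T cells, Cd40 was lower (-0.77 ± 0.24, adjusted p = 0.04, lost in 11 of 23). Icosl rose by 0.67 ± 0.08 (adjusted p = 0.000149), from 10.8 ± 0.463 to 17.2 ± 1.53 CPM (SD, n = 4), a call kept in all 23 alternatives. Cd83, a marker of mature dendritic cells that the brain also expresses, rose by 0.31 ± 0.08 (adjusted p = 0.0175, lost in 6 of 23).

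Markers of the cells that can carry class II were counted in the same comparison. Of 15 tested genes of microglia 4 were lower and none higher, with a median of -0.14: Olfml3 (-0.68 ± 0.08, adjusted p = 7.75e-05), Siglech (-0.62 ± 0.08, adjusted p = 0.000246), Fcrls (-0.88 ± 0.15, adjusted p = 0.00137) and Sall1 (-0.34 ± 0.07, adjusted p = 0.00754). All 4 calls held in all 23 alternatives. The sum over the 17 microglial genes was 404 to 570 CPM at 1% protein and 489 to 563 CPM at 20%. The sums overlapped, while these 4 genes did not. P2ry12 and Gpr34, which define microglia, are listed at 0 and lie inside other genes.

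Border-associated macrophages had 1 lower gene of 8 tested, Maf (-0.43 ± 0.11, adjusted p = 0.0212, lost in 6 of 23), and a median of -0.41. The count depended on the libraries: 4 of 9 genes were lower without the pair with cortical markers, 3 of 9 when the pair's library at 1% protein alone was left out, and 0 of 9 without the 3 libraries of low mitochondrial share. It was also 0 when any of 4 other libraries at 1% or 20% protein was left out (replicate 2 at 60% fat and replicate 1 at 20% fat for 1% protein, replicate 1 at 60% fat and replicate 2 at 20% fat for 20% protein). Their summed markers were 27.9 to 37.1 CPM at 1% protein and 37.4 to 40.1 CPM at 20%, without overlap. Mrc1, the mannose receptor that defines them, had -0.80 with an adjusted p of 0.116. Its level, with 60% fat first, was 1.69, 0.563, 0.83 and 2.17 CPM at 1% protein and 2.80, 2.23, 2.54 and 1.65 CPM at 20%. Pf4 and Ms4a7, 2 more defining genes, had 2 to 13 and 0 to 7 counts. At 2.5% protein the sums were 30 to 41.2 CPM.

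Of 8 tested genes of monocytes and neutrophils 2 were lower, Lyz2 (-0.54 ± 0.16, adjusted p = 0.0347, lost in 8 of 23) and Ccr2 (-2.28 ± 0.58, adjusted p = 0.0182, on 0 to 12 counts, lost in 6 of 22). Their sums overlapped, 4.95 to 11.5 against 9.55 to 12 CPM. None of 6 tested dendritic cell genes passed, with sums of 37.7 to 40.6 against 39.7 to 43.9 CPM. The genes that define dendritic cells were near 0, with 0 to 3 counts for Xcr1, 2 to 9 for Clec9a, 1 to 10 for Itgax and 0 to 5 for Cd209a. B cells, which also carry class II, were near 0 by Cd79b (0 to 5 counts). Ighm, an antibody heavy chain, was higher at 1% protein (1.00 ± 0.23, adjusted p = 0.011, lost in 1 of 23). Its change was 0.59 to 1.14 when single libraries were left out. The other 6 tested genes of the B cell list did not pass, and the list's median was -0.35 with 5 of 7 values below 0. The list's sum at 1% protein was 67.2 CPM in replicate 2 of 20% fat, of the pair with cortical markers. In the other libraries at 1% protein it was 28.9, 32.5 and 32.7 CPM. None of 4 tested T and NK cell genes passed, and Cd3e had 0 to 4 counts.

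RNA of the tissue around the brain also differed between these diets. Of 9 tested genes of meningeal fibroblasts 8 were lower at 1% protein, with a median of -1.13. Col1a1 fell by 1.17 ± 0.13 on the log2 scale (adjusted p = 4.07e-05) and Slc22a6 by 1.49 ± 0.25 (adjusted p = 0.00155). Their sum was 117 to 147 CPM at 1%, 126 to 151 at 2.5%, 168 to 189 at 5% and 177 to 198 CPM at 20% protein. The start of the diet code also changes between 2.5% and 5% protein, so code and protein cannot be told apart there. Of 10 endothelial genes 9 were lower, with a median of -0.48, Kdr by 0.92 ± 0.13 (adjusted p = 0.000451), and sums of 179 to 201 against 236 to 278 CPM. Without the 3 libraries of low mitochondrial share, which leaves 1 library at 1% protein, several changes were smaller. Among fibroblast genes Dcn went from -0.85 to -0.16, Slc6a13 from -0.64 to -0.12 and Lum from -1.23 to -0.60, while Col1a2 went from -0.74 to -0.63. Among endothelial genes Slco1a4 went from -0.43 to -0.06 and Abcb1a from -0.49 to -0.21, while Cdh5 went from -0.78 to -0.77 and Flt1 from -0.35 to -0.44. Of the 10 endothelial genes 5 were called lower when replicate 2 of either 60% fat diet at 1% or 20% protein, or replicate 1 at 20% fat and 1% protein, was left out. It was 4 for replicate 2 at 20% fat and 20% protein. None of the 3 tested pituitary genes passed. Gh, growth hormone, had -2.41 ± 1.00 (adjusted p = 0.113) and Prl, prolactin, -2.37 ± 0.87 (adjusted p = 0.0767), and 2 of the 3 passed as lower without the pair with cortical markers. The pituitary sum was 0.719 to 1.84 CPM at 1%, 4.92 to 11.2 at 5% and 1.68 to 9.03 CPM at 20% protein. The fibroblast, endothelial, border macrophage and pituitary sums were on average lower at 1% protein, the direction of the class II chains. So were those of microglia, dendritic cells, monocytes and neutrophils, red blood cells, T and NK cells and hypothalamic neurons. The mean sums of B cells, choroid plexus and cortical neurons were higher. The pituitary sums at 20% fat with 20% protein, 1.68 and 1.87 CPM, were near the highest at 1% protein. The part of these RNAs in the class II result was not tested. Choroid plexus, another site of class II bearing macrophages, had 1 of 7 genes called, Ttr, which was higher (3.26 ± 0.93, adjusted p = 0.0297). Its call was lost in 6 of 23 alternatives (adjusted p up to 0.11), 5 of them leaving out 1 library: either 60% fat library at 1% protein, replicate 2 at 60% fat and 20% protein, or either 20% fat library at 20% protein. The choroid plexus sum ran from 52.9 to 263 CPM at 1% protein and from 48 to 59.7 CPM at 20%.

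**Figure D5:**
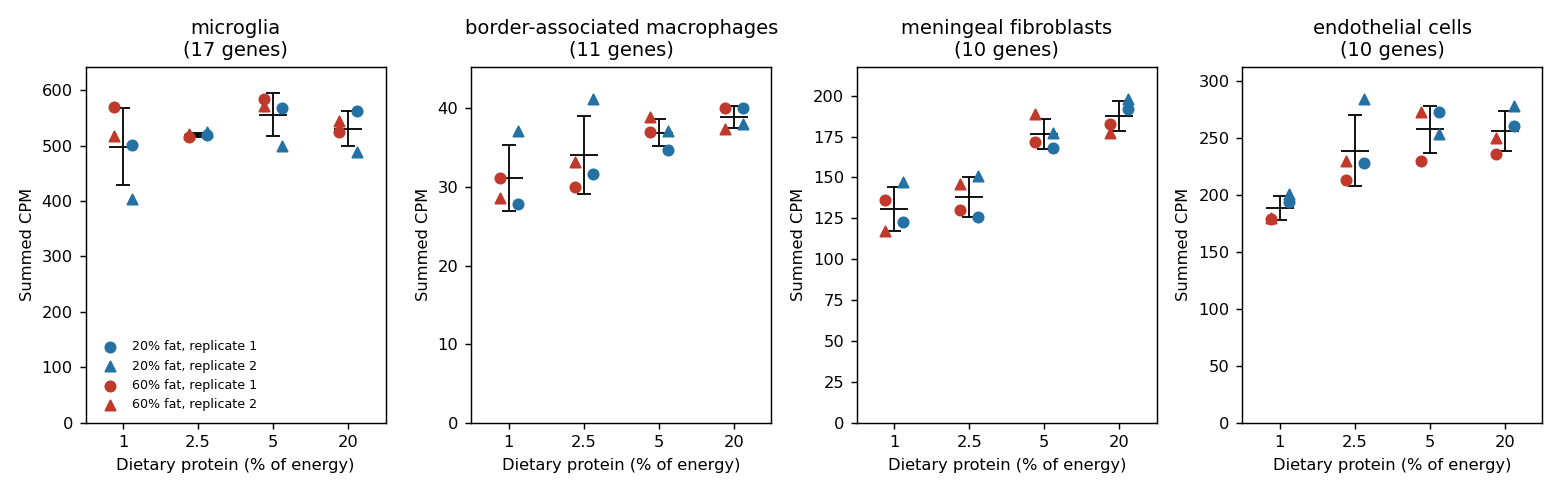
Summed CPM (y axis from 0) of marker genes of microglia, border-associated macrophages, meningeal fibroblasts and endothelial cells in every library by dietary protein (% of energy), with colours and symbols as in the plot of single genes and black mean ± SD (n = 4). The microglial sums overlap between 1% and 20% protein, and the other 3 lie lower at 1%, as at 117 to 147 against 177 to 198 CPM for meningeal fibroblasts.

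In none of the other comparisons fixed by the design (2.5% or 5% against 20% protein, fat, the difference between fat levels, and the protein slope) did any gene of the class II pathway, interferon gamma, class I, costimulation or cell type lists pass.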

How the data were processed

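RNA sequencing of 16 hypothalamus libraries was used. The authors deposited raw gene counts, not normalised. Per the submitters' processing notes, reads were handled with HISAT2 2.1.0, SAMtools 1.2, Subread 5.0 (featureCounts), FastQC and edgeR on GRCm38. Whether counting used strand was not given in the sources used here. Groups came from the diet labels. The deposited gene length was used only for levels per kilobase.

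Genes were kept with filterByExpr (minimum count 10) and scaled with TMM. The edgeR 4.0.16 quasi-likelihood F test (R 4.3.3) was fitted to all 16 libraries, with Benjamini-Hochberg adjustment at 0.05 over 16646 genes. The models were protein as 4 levels plus fat; 8 separate diets for the difference between fat levels; and protein as a number with fat, their interaction dropped where its p was above 0.05 (kept for 472 genes). CPM used TMM-scaled totals; log2 CPM used a prior count of 2. The scripts were tested on simulated data. The alternatives were DESeq2 1.42.0, its size factors, no filter, a replicate block, other protein scales and models, and leaving out libraries.

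The 7 genes, the lists and the tests were chosen with earlier results of these data known. Named were all 7 genes, every other class II pathway gene measured, at most 4 called genes per further list and comparison by smallest p, defining markers near 0, and the 10 most similar genes. Further markers were named next to the similar genes, and for their size without the low mitochondrial libraries. Promoters came from a RefSeq table (GRCm38.p6) with no entry used for H2-Ab1 and Ciita, and Cd74 was left out of it. No replicate libraries agreed within sampling noise (chi-square per degree of freedom 2.94 to 24.3). 1 listed cell type marker is not reported here.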

Additional observations from a re-analysis of the deposited data

Results flagged for a closer look

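In each group of 4 libraries at a protein level, every one of the 7 genes was checked for a library far from the other 3, which made 28 checks. 1 library stood out: replicate 2 of 20% fat with 20% protein had a log2 CPM of 0.0229 for H2-DMb1, on 17 counts (0.907 CPM), against 34 to 39 counts (1.85 to 2.11 CPM) in the other 3 libraries at 20% protein. Such a check marks about 1 in 20 groups by chance. The same library lay within the range of the other 3 for H2-Aa, H2-Eb1 and Cd74 and was the lowest of the 4 for H2-Ab1 (3.63 CPM) and H2-DMa (8.59 CPM).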

How the results depend on the processing

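At 1% against 20% protein, H2-Aa, H2-Ab1, H2-Eb1 and Cd74 stayed lower in all 23 alternatives (H2-Aa -2.24 to -1.73, H2-Ab1 -2.00 to -1.65, H2-Eb1 -1.44 to -1.06, Cd74 -1.66 to -1.37) and called in all but the one without the 3 libraries of low mitochondrial share, where 0 of the 7 were called; these calls are counts for genes chosen on these data and are no evidence of stability. Ciita ran from -0.74 to -0.50, H2-DMa from -0.07 to 0.29 and H2-DMb1 from -0.34 to 0.11. The genes called in all, 2376, became 5889 without the 2 libraries with cortical markers, 806 with only the 1% and 20% libraries, and 403 without the 3 libraries of low mitochondrial share. Leaving out single libraries gave 939 to 5616. Replicates 1 and 2 gave 1135 and 978 when left out of 60% fat with 1% protein, 1083 and 1355 for 60% fat with 20% protein, and 939 and 5616 for 20% fat with 1% protein; replicate 2 of the 20% fat, 20% protein diet gave 961. The 7 genes' median then ran from -1.44 to -1.06, and 4 to 6 of them were called. For the protein slope (3 genes) the counts were 82 with DESeq2, 8 without the filter, 1311 on a log2 scale, 1 without the cortical pair, 1 without the low mitochondrial libraries, and 0 to 10 without single libraries; on the log2 scale the 7 genes' median was -1.06 and 4 were called. At 2.5% against 20% protein (1 gene) they were 26 with DESeq2, 25 without the filter, 7 with the replicate block, 50 without the cortical pair, 7 without the low mitochondrial libraries, and 0 to 17. At 5% the range without single libraries was 1 to 5. For fat (1 gene) the count was 0 with DESeq2, 2 with the replicate block, 2 and 0 without those sets of libraries, and 0 to 2 without single ones; for the difference between fat levels it was 1 without the filter. Deviations of same-numbered libraries correlated between diets at -0.17 to 0.34 (28 pairs of diets, 7 over 0.1), so the numbers were not taken to pair libraries. The cause of these shifts was not tested, beyond the fewer libraries some settings keep. Ciita, H2-DMb1 and the chains at 1% protein rest on 9 to 42 counts per library, which limits their precision.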
